A study of Oryza sativa with 6 samples.

Results

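The genes described here are the ribosomal protein genes of rice whose description in the deposited gene table contains "ribosomal protein" and neither "40S" nor "60S". This rule was meant to collect the ribosomal proteins of the chloroplast and the mitochondrion, and it found 141 of the 35018 entries of the table. The leaves came from CA21, a glyphosate-tolerant line obtained by mutagenesis of Zhejing30 with 60Co gamma rays and EMS and then crossed and backcrossed with the sensitive rice P1003. CA21 seedlings at the third leaf stage were sprayed with glyphosate at 2 mg/ml (GLY, 3 libraries) or left unsprayed (CK, 3 libraries), and leaves of both groups were taken once the P1003 plants had died. RNA freed of ribosomal RNA was sequenced, and expression was given as FPKM, the fragments of a gene scaled to its length and to the number of mapped fragments of the library. Both groups carry the same mutagenized background, so CK is unsprayed CA21 and not a sensitive or wild type line. Neither labels nor methods say whether the 3 replications of a group were separate plants or pools, so the p-values below measure the spread between these libraries.

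A plant cell makes proteins with 3 kinds of ribosome. The cytosolic ribosome has a 40S and a 60S subunit of eukaryotic type. Chloroplasts and mitochondria keep ribosomes of bacterial type, with a small (30S) and a large (50S) subunit in the chloroplast, and most of their proteins are encoded in the nucleus and imported. In leaves the chloroplast ribosome translates the plastid-encoded subunits of the photosystems and the large subunit of Rubisco. Glyphosate blocks the enzyme EPSPS of the shikimate pathway, which in plants lies in the plastid and leads to the aromatic amino acids.

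The label of the set held only in part. Of the 141 members, 11 were described as chloroplast proteins, 3 as mitochondrial proteins and 127 without a compartment. The gene table assigned a KEGG orthology (KO) family to 106 members. In 51 of them the family was of bacterial type, the type of organellar ribosomes, and in another 51 it was of eukaryotic type, the type of the cytosolic ribosome. GO terms of the same table placed 27 undescribed members in the chloroplast, and 5 of these had a eukaryotic KO family, which was taken over the GO term. A described compartment was also taken over GO terms, and a chloroplast GO term over a mitochondrial one. The L3 gene LOC_Os01g14830 had GO terms for both and was counted as plastid. So was the L21 gene LOC_Os05g48410, described as chloroplast but with a mitochondrial GO term and no chloroplast one. Together these annotations gave 33 plastid-annotated members, 4 mitochondrial members, 31 members of bacterial type with no compartment, 51 members of cytosolic type and 19 members that could not be assigned. The remaining 3 were not subunits of a ribosome by their KO family, 2 being NHP2, a protein of the RNA-modifying H/ACA particles, and 1 being NDUFA2, a subunit of mitochondrial complex I. The whole set is therefore called ribosomal protein genes without a 40S or 60S label, and its organelle-type members are the first 3 classes, 68 in number. The classes were assigned after the values had been seen, from annotation and without use of the values.

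The ratio of coverage to FPKM, read as a depth, was 3.84 to 4.40 Gb in GLY and 3.43 to 3.80 Gb in CK. It was larger in every GLY library than in every CK library, so this ratio and treatment cannot be told apart. The ratio lies far below the valid sequenced bases that the paper lists, so it is not taken as the mapped bases of a library. Those valid bases were fewer for every GLY library than for every CK library. The tissue label fitted the marker genes. The 26 leaf mesophyll markers (chlorophyll-binding proteins, photosystem I subunits and the Rubisco small subunit) summed to 37857 to 47711 FPKM in GLY and 58166 to 61948 FPKM in CK, and the 8 seed storage genes summed to at most 1.50 FPKM in any library. Fold changes came from limma on log2(FPKM + 1), where the change of weakly expressed genes is compressed, over 19316 entries with a mean of at least 0.5 FPKM. A member was called when its Benjamini-Hochberg adjusted p over all these entries was below 0.05. Over all of these entries the median log2 fold change was 0.20, and 77.3% of the calls were higher in GLY. When FPKM was divided by median-of-ratios size factors this median was -0.02, a shift of -0.22, and 49.4% of the calls were higher in GLY, so changes are best read relative to that shift.

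In the whole set the share of members called higher was close to that of all entries, and the share called lower was smaller. Of 136 members that passed the filter, 27 were higher in GLY (19.9%), where 19.3% of all tested entries were called higher, and 1 was lower, where 5.65% of all entries were called lower. With the study's threshold (log2 fold change of 1 or more in size and an unadjusted P below 0.05), 10 members were higher, where 6.58% of all entries passed, and 0 were lower, where 2.4% of all entries passed. Every GLY library lay above every CK library for 42 members, where this held for 34.3% of all entries, and below for 6, where it held for 10.6%. The median log2 fold change of the tested members was 0.28. After median-of-ratios scaling 12 members were higher, all of them among the 27, and 9 were lower, where 9.98% and 10.2% of all entries were called in these directions. The 5 members under the filter were LOC_Os01g67200, LOC_Os05g18750, LOC_Os06g23210, LOC_Os08g06474 and LOC_Os12g30490, none with a mean above 0.468 FPKM.

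The plastid-annotated members differed in their counts from the other classes. Of 33, all of them tested, 13 were higher in GLY (39.4%) and 1 was lower. At the study's threshold 9 of the 33 were higher. The median log2 fold change was 0.71, and 0.45 after median-of-ratios scaling, which left 9 higher and 2 lower. With the 5 members of eukaryotic family and chloroplast GO term counted in, a choice made after seeing the data, 15 of 38 were higher, with a median of 0.67. The plastid-annotated genes were also among the better expressed members, 23 of 33 having a mean of at least 10 FPKM. Of these 23, 10 were called higher and 1 lower, where 19.7% and 10.9% of all entries at that level were, and 7 were higher at the study's threshold, where 7.28% of such entries were. Large-subunit genes (9 of 24 higher, median 0.71) and small-subunit genes (4 of 9 higher and 1 lower, median 0.89) both contributed.

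In the other classes no larger share than 25.0% was called higher. Among the members of bacterial type without a compartment 4 of 28 tested were higher (14.3%), with a median log2 fold change of 0.08. Of these members, 4 had a mean of at least 10 FPKM, with 1 called higher (25.0%, against 19.7% of all entries at that level). Their median was 0.88, and that of the plastid-annotated members at that level was 0.80. Plastid-annotated members under 10 FPKM had 3 of 10 higher and a median of 0.43. Of the 4 mitochondrial members 1 was higher. Of the 51 cytosolic-type members 9 were higher (17.6%) and 0 passed the study's threshold, with a median of 0.22 that changed sign to -0.05 after median-of-ratios scaling. None of the 17 tested unassigned members and none of the 3 non-ribosomal members was called by limma, and the unassigned members had a median of 0.11. The difference between classes was not tested, since the members were chosen with results of these data known.

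**Figure D1:**
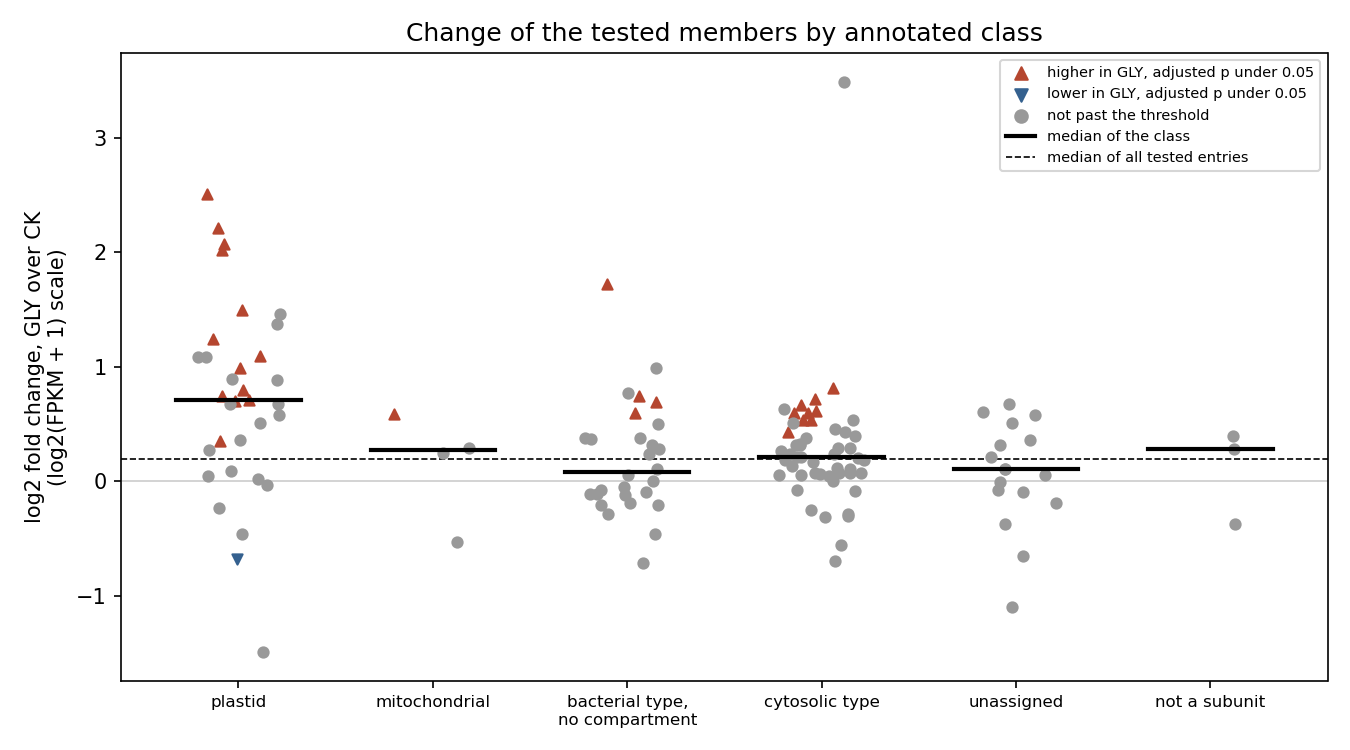
Log2 fold change of each tested member (vertical axis, GLY over CK on log2(FPKM + 1)) by annotated class (horizontal axis). Triangles mark calls at adjusted p under 0.05, grey points the other members, black bars the class medians and the dashed line the median of all tested entries, 0.20. The plastid class has a median of 0.71 and 13 upward triangles, and the other medians lie between 0.08 and 0.29.

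The summed level of the 33 plastid-annotated members was 1373, 1486 and 1508 FPKM in the GLY libraries, against 912, 984 and 988 FPKM in the CK libraries. The groups did not overlap, and the means were 1456 ± 72.6 FPKM in GLY and 961 ± 42.6 FPKM in CK (SD, n = 3 each). Without LOC_Os03g34040, the member with the largest rise, the sum was still 1291 ± 78.4 FPKM in GLY and 932 ± 31.7 FPKM in CK (SD, n = 3 each). All sums here are of FPKM as deposited. The median-of-ratios size factors were 1.12 to 1.14 in GLY and 0.90 to 0.93 in CK. Dividing by them would lower every GLY sum and raise every CK sum. Fewer cells of a type and less RNA per cell cannot be told apart in such leaf samples. Marker genes of cell types moved in the other direction at the same time. Of 25 tested mesophyll markers 7 were lower and 2 higher in GLY, with a median log2 fold change of -0.33. Of 33 tested markers of dividing cells 14 were lower (42.4%) and 1 higher (3.03%), with a median of -0.77. All of these calls were among the 32 tested core histone genes, and the 1 replication factor of the list was not called. After scaling 15 markers of dividing cells were lower and 1 higher, with a median of -1.04. The sums of the list were 250.1 to 326 FPKM in GLY and 548 to 707 FPKM in CK. Their part in the changes of the ribosomal protein genes was not tested.

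**Figure D2:**
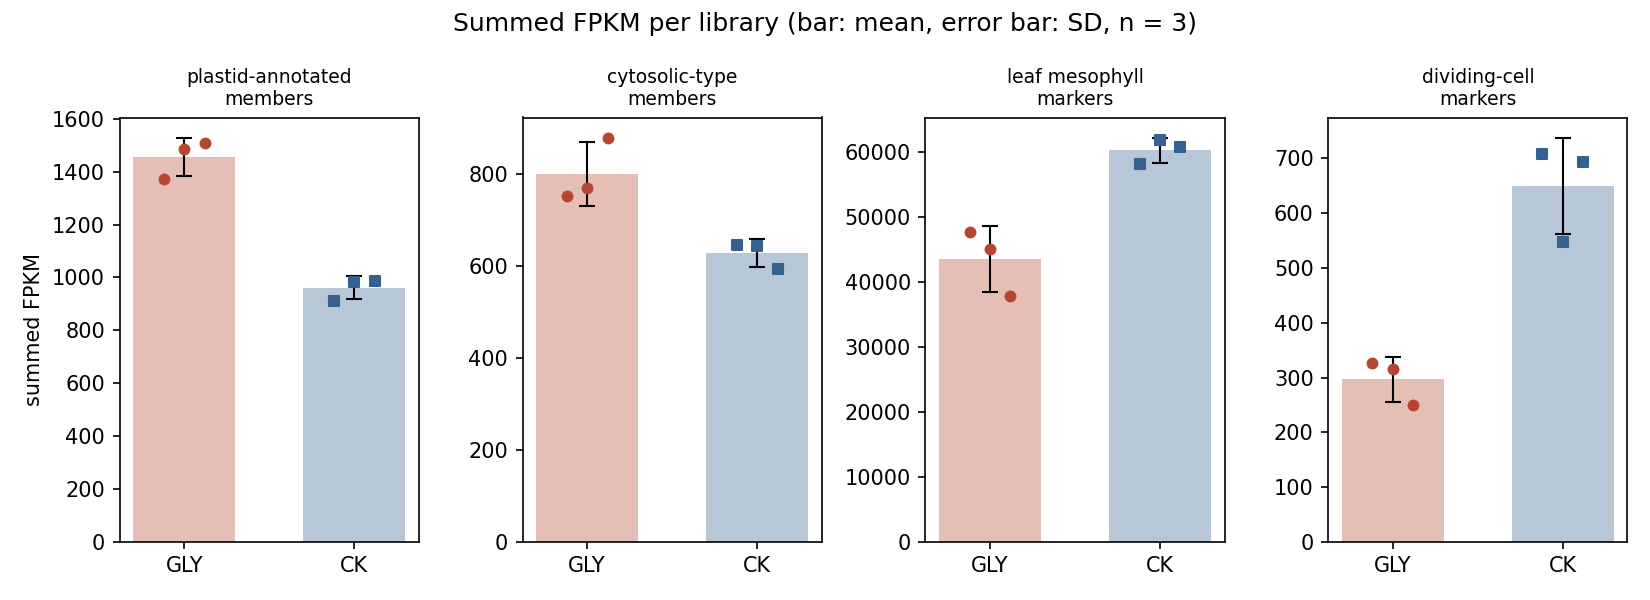
Summed FPKM per library (points), with the mean (bar) and SD (error bar) of the 3 GLY and the 3 CK libraries, for the plastid-annotated members, the cytosolic-type members, the leaf mesophyll markers and the dividing-cell markers, each panel with its own axis from 0. The plastid-annotated and cytosolic-type sums are higher in GLY, and both marker sums are lower in GLY. FPKM is as deposited, without median-of-ratios scaling, which would lower every GLY sum and raise every CK sum.

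The proteins of the small subunit are taken first. LOC_Os03g34040 encodes ribosomal protein S5, which in bacteria lies at the mRNA entry of the small subunit and affects decoding accuracy. It lies on chromosome 3 from 19412908 to 19417098 on the minus strand in the deposited coordinates, and its GO terms place it in the chloroplast. It had 171, 161 and 161 FPKM in GLY libraries, against 17.0, 35.7 and 36.2 FPKM in CK libraries. All GLY libraries were far above all CK libraries, and the CK libraries themselves differed, CK1 being lowest. The log2 fold change was 2.51 (SE 0.29, limma adjusted p = 0.0040), the largest among the called members. One annotated transcript, LOC_Os03g34040.1, carried 93.3% to 96.9% of the gene's FPKM in every library, so most of the change lay in it, without a switch between transcripts. A second one, LOC_Os03g34040.2, rose as well. It had 7.67, 7.07 and 7.55 FPKM in GLY and 0.58, 2.01 and 1.04 FPKM in CK (limma adjusted p = 0.015).

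LOC_Os03g55930 encodes S9, whose tail reaches the tRNA in the P site of bacterial ribosomes, and is also a chloroplast protein by GO. Its levels were 26.3, 26.5 and 31.4 FPKM in GLY libraries, against 7.49, 6.26 and 2.94 FPKM in CK libraries, a log2 fold change of 2.22 (SE 0.30, limma adjusted p = 0.0055). LOC_Os05g09400, described as chloroplast 30S protein S31, had 15.3, 19.9 and 24.2 FPKM in GLY and 6.17, 6.07 and 6.49 FPKM in CK, with a log2 fold change of 1.50 (SE 0.17, limma adjusted p = 0.0036). The CK values of S31 were tight and the GLY values spread widely, without overlap. Most of the S31 level came from its transcript LOC_Os05g09400.3, at 16.8, 23.8 and 28.9 FPKM in GLY and 5.74, 7.24 and 7.62 FPKM in CK. LOC_Os03g62630, a chloroplast S6 by GO, rose by less, with a log2 fold change of 0.36 (limma adjusted p = 0.028), and had 0.06 after scaling.

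The one called fall was in LOC_Os03g63950, plastid-specific 30S ribosomal protein 1 (PSRP1). PSRP1 is related to the bacterial factors that hold ribosomes in an inactive state and was characterized in spinach. It had 25.7, 19.0 and 26.7 FPKM in GLY libraries, against 42.0, 31.4 and 42.8 FPKM in CK libraries, a log2 fold change of -0.68 (SE 0.18, limma adjusted p = 0.044). This entry also held the neighbouring gene LOC_Os03g63940, a CBS domain membrane protein, and a newly assembled transcript, MSTRG.14719.2, that joins both genes. The joining transcript had 22.1, 16.5 and 21.6 FPKM in GLY and 41.5, 5.76 and 43.3 FPKM in CK. The annotated PSRP1 transcript LOC_Os03g63950.1 had 5.16, 0.70 and 5.71 FPKM in GLY, against 2.42, 64.6 and 0.77 FPKM in CK, so the assignment of reads differed between libraries and the call belongs to the joint entry. The call was also lost in 5 of the 6 fits with 1 library left out, with adjusted p between 0.063 and 0.12.

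Proteins of the large subunit made up most of the called rises of the organelle-type members, but not the larger share. Of 47 tested large-subunit genes 11 were higher (23.4%), and of 18 small-subunit genes 7 were higher (38.9%), where 19.3% of all entries were. LOC_Os03g12020, chloroplast 50S protein L15 and the only member described as chloroplast among the 4 largest rises, had 86.4, 66.5 and 82.6 FPKM in GLY libraries, against 18.9, 20.8 and 14.4 FPKM in CK libraries. Its log2 fold change was 2.07 (SE 0.17, limma adjusted p = 0.0015). LOC_Os01g54540 encodes L13, an early-binding protein in the assembly of the bacterial large subunit, and had 59.3, 40.1 and 60.7 FPKM in GLY, against 11.7, 9.81 and 15.8 FPKM in CK (log2 fold change 2.02, SE 0.23, limma adjusted p = 0.0037). For both genes the lowest GLY library, GLY2, was still more than 2 times the highest CK library.

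LOC_Os02g51790 encodes L29, which in bacteria sits at the exit of the peptide tunnel, and had no compartment in the table. It had the smallest adjusted p of the members, with 19.9, 19.1 and 18.5 FPKM in GLY libraries and 4.96, 4.89 and 5.49 FPKM in CK libraries (log2 fold change 1.72, SE 0.09, limma adjusted p = 0.00037). LOC_Os03g60100, 50S protein L17, also a protein of the tunnel exit in bacteria, had 40.1, 24.6 and 24.9 FPKM in GLY and 13.9, 11.4 and 14.2 FPKM in CK (log2 fold change 1.10, SE 0.21, limma adjusted p = 0.017). GLY1 was the highest L17 library, after scaling the adjusted p was 0.055, and without CK2 it was 0.054. Smaller rises without overlap were found in the plastid-annotated genes of L10, the base of the stalk that carries L7/L12 (LOC_Os03g17580, log2 fold change 0.74, limma adjusted p = 0.0058), of L21 (LOC_Os02g15900, 0.80, adjusted p = 0.042) and of plastid-specific 50S protein 6 (LOC_Os11g34940, 0.71, adjusted p = 0.012). After scaling L10 kept the call (limma adjusted p = 0.025), and L21 and plastid-specific 50S protein 6 lost it (0.14 and 0.069).

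At low levels the rises could be as consistent. LOC_Os03g54040, an L6 gene with a chloroplast GO term, had 2.77, 2.58 and 2.40 FPKM in GLY libraries, against 0.72, 0.52 and 0.33 FPKM in CK libraries (log2 fold change 1.24, SE 0.13, limma adjusted p = 0.0032). LOC_Os01g14830 encodes L3, a protein near the peptidyl transferase centre, and had 2.47, 2.23 and 2.58 FPKM in GLY, against 0.68, 0.68 and 0.81 FPKM in CK (log2 fold change 0.99, SE 0.10, limma adjusted p = 0.0029). Its GO terms name both the chloroplast and the mitochondrion.

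**Figure D3:**
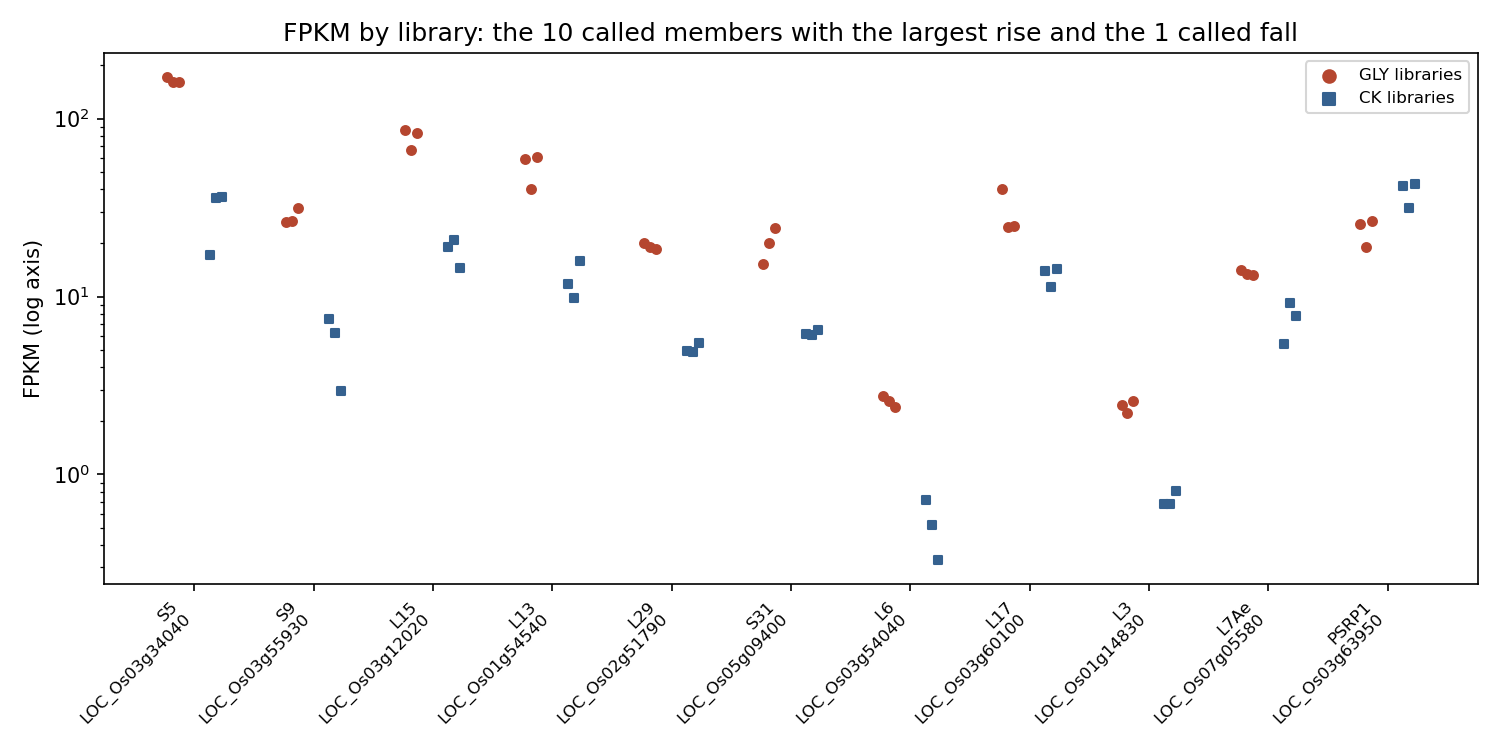
FPKM (log axis) of each GLY library (circles, left) and each CK library (squares, right) for the 10 called members with the largest rise, in order of their fold change, and for the called fall of PSRP1. In each of the 10 the GLY points lie above all CK points, from S5 with 161 to 171 FPKM in GLY and 17.0 to 36.2 FPKM in CK to the L7Ae-described gene with 13.3 to 14.1 FPKM in GLY and 5.44 to 9.15 FPKM in CK.

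The 2 organelle-type genes of highest level, L31 and L1, were not called, while S5, the next by level, had the largest called rise. LOC_Os01g44210, 50S protein L31, whose bacterial counterpart bridges both subunits, was the highest member with 394, 388 and 367 FPKM in GLY libraries, against 355, 390.0 and 371 FPKM in CK libraries. The groups overlapped (log2 fold change 0.04, 95% interval -0.13 to 0.22, limma adjusted p = 0.70), and the estimate was -0.26 after scaling. LOC_Os05g32220, a gene of the L1 family, which forms the stalk next to the E site, had 129, 98.5 and 119 FPKM in GLY and 127, 151 and 129 FPKM in CK (log2 fold change -0.23, adjusted p = 0.25 by limma). After scaling this became -0.53 with a limma adjusted p of 0.045. LOC_Os07g36090, described as L28 and not assigned to a compartment, had 199.6, 157 and 150.3 FPKM in GLY and 197, 216 and 244 FPKM in CK, with a log2 fold change of -0.38 (limma adjusted p = 0.11) and of -0.68 after scaling (adjusted p = 0.031).

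Among the plastid-specific proteins and L19, some large differences had 1 library apart from its group. Plastid-specific 50S protein 5 (LOC_Os01g17150) had 49.8, 68.5 and 58.0 FPKM in GLY libraries, against 7.56, 40.5 and 32.4 FPKM in CK libraries, and did not pass the adjusted threshold (log2 fold change 1.38, limma adjusted p = 0.15). Plastid-specific 30S protein 3 (LOC_Os04g38750) had 27.9, 57.8 and 33.1 FPKM in GLY and 27.6, 0.84 and 51.6 FPKM in CK. Its log2 fold change of 1.46 (limma adjusted p = 0.44) became -0.0043 without CK2. The L19 gene LOC_Os02g43600 had 19.1, 45.2 and 52.1 FPKM in GLY and 18.1, 16.6 and 14.5 FPKM in CK, with a limma adjusted p of 0.089. It passed without GLY1, with a log2 fold change of 1.52 (limma adjusted p = 0.0077). In each of these 3 genes 1 library lay far below the others of its group.

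Several members had such a library. Among 89 members that reached 5 FPKM in a library, 11 (12.4%) had a spread of at least 5-fold or a value of 0 within a group, where this held for 11.3% of all entries of that level. The 11 were unevenly spread over the classes. They were 7 of the 33 plastid-annotated members, 2 of the 31 of bacterial type with no compartment and 2 of the 51 of cytosolic type. Such values were thus most frequent in the plastid-annotated class. The L3 gene LOC_Os02g04460 had 0.24, 87.4 and 56.5 FPKM in GLY libraries, against 16.9, 18.3 and 18.7 FPKM in CK libraries. The cause of the gap between 0.24 and 87.4 FPKM within the same group was not tested. Low single values are therefore not read here as silence of a gene. The cytosolic-type S16e gene LOC_Os11g03400 was listed at 0 in GLY1 and in all 3 CK libraries, and at 33.4 and 40.3 FPKM in GLY2 and GLY3, so its difference, the largest estimate of the set, did not pass the test (limma adjusted p = 0.14).

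Many bacterial-type families were present as several nuclear genes. The 51 members with a bacterial KO family belonged to 30 families, 14 of them with at least 2 members. Of all tested entries 19.3% were called higher, and no such share was computed over families. A called rise was found in 11 families, of which 7 had at least 2 members, and in 1 of the 7 every member was higher. That family was S5. Besides LOC_Os03g34040, the copy with no compartment, LOC_Os02g01230, had 4.56, 5.07 and 4.52 FPKM in GLY libraries, against 3.04, 2.54 and 2.79 FPKM in CK libraries (log2 fold change 0.59, SE 0.10, limma adjusted p = 0.010). Both S5 genes rose, and both kept the call after scaling, the second copy with a limma adjusted p of 0.0497.

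In the S9 family the second copy, LOC_Os07g46440, had 2.20, 1.49 and 2.43 FPKM in GLY and 1.01, 1.63 and 1.40 FPKM in CK, and its groups overlapped (log2 fold change 0.37, limma adjusted p = 0.18). Of 3 L17 genes, the plastid-annotated one and LOC_Os01g62210, at 1.65, 1.46 and 2.51 FPKM in GLY and 0.54, 0.79 and 0.76 FPKM in CK, were higher (limma adjusted p = 0.017 and 0.028, and 0.055 and 0.064 after scaling), and LOC_Os05g38580 was not called (log2 fold change -0.21, adjusted p = 0.45). Of 3 L6 genes, both plastid-annotated copies were higher. The second of them, LOC_Os03g24020, had 4.12, 3.55 and 3.85 FPKM in GLY and 1.92, 1.93 and 2.07 FPKM in CK (log2 fold change 0.70, limma adjusted p = 0.0051). The copy that GO places in the mitochondrion, LOC_Os03g51510, had 0.67, 4.89 and 4.91 FPKM in GLY and 4.89, 3.94 and 5.05 FPKM in CK, and was not called (limma adjusted p = 0.49). Differences between copies were not tested, and these families were chosen after their values were seen.

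**Figure D4:**
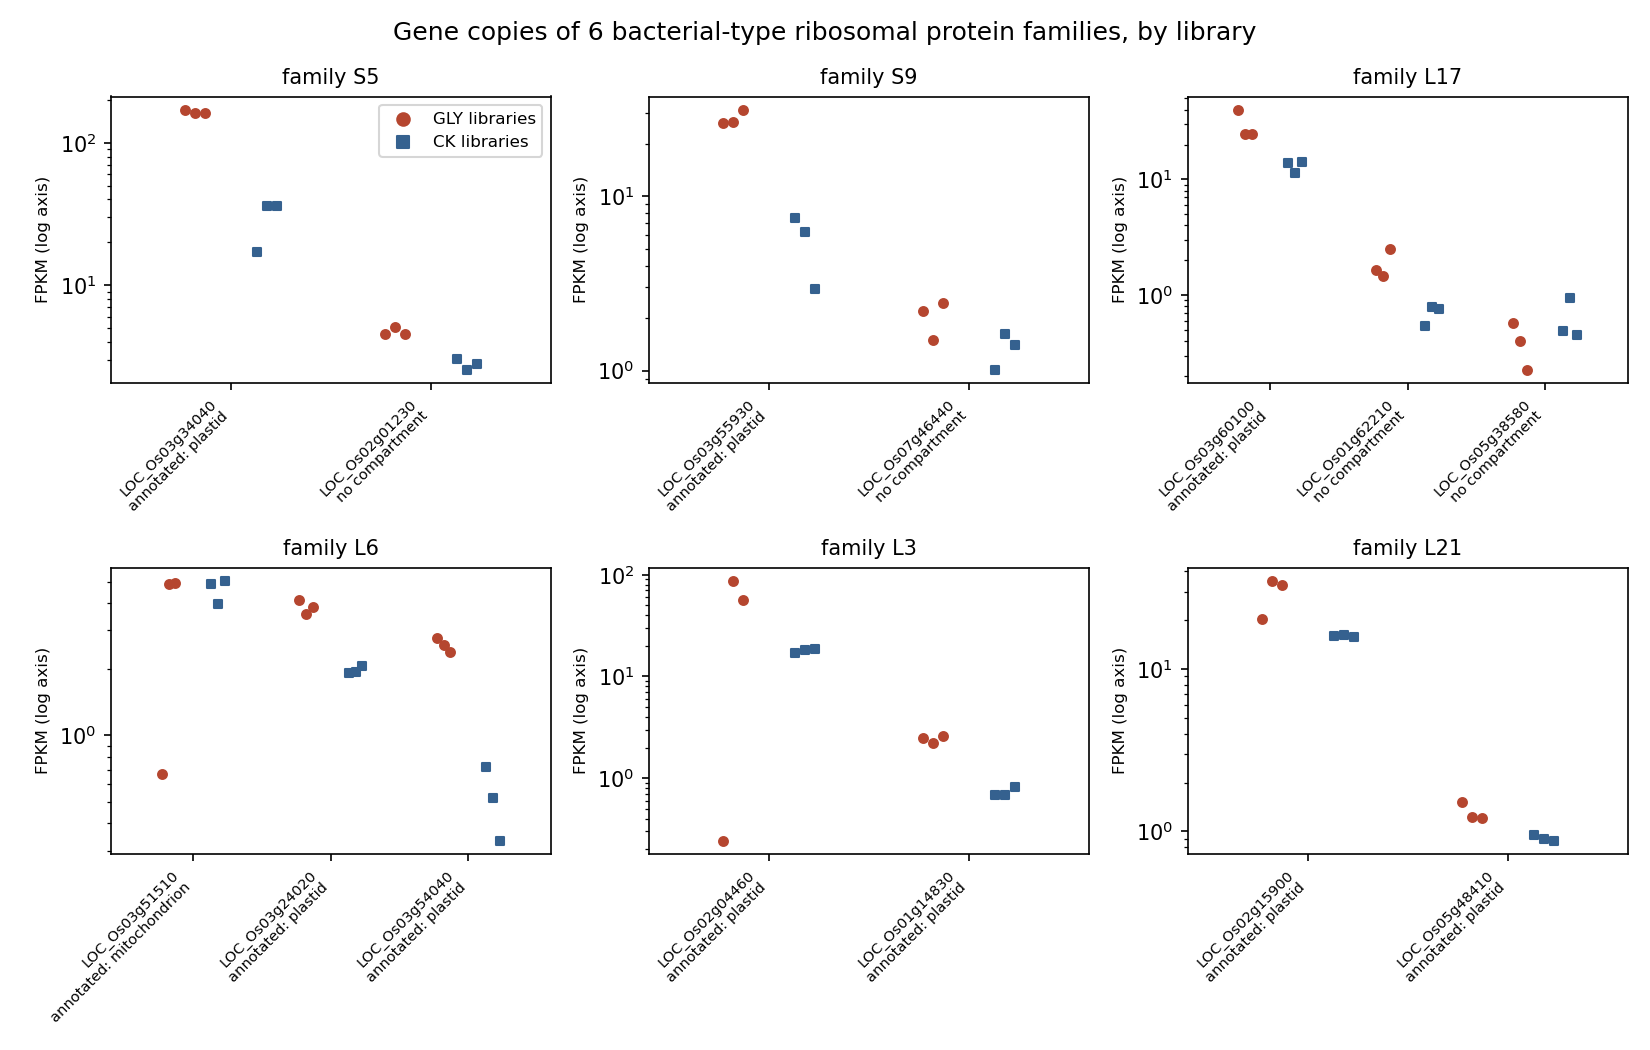
FPKM (log axis, own range in each panel) of each GLY library (circles) and each CK library (squares) for the gene copies of 6 bacterial-type families, ordered by mean level, with the compartment that description or GO terms give. In S5, S9, L17 and L21 the plastid-annotated copy with the highest level is higher in every GLY library, and in L3 and L6 the most abundant copy has 1 low GLY library, at 0.24 and 0.67 FPKM.

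The mitochondrial members were expressed at low levels. LOC_Os12g33240, mitochondrial S10, had 2.38, 2.48 and 2.76 FPKM in GLY libraries, against 1.17, 1.75 and 1.17 FPKM in CK libraries, and was called with a log2 fold change of 0.59 (SE 0.13, limma adjusted p = 0.027). Without any 1 library except CK2 this call was lost, with adjusted p from 0.063 to 0.081. It was also lost after scaling (limma adjusted p = 0.093) and without the filter (0.064). The 39S proteins L47 (LOC_Os06g03790) and L46 (LOC_Os06g19640) had at most 1.70 FPKM in any library and were not called (limma adjusted p = 0.45 and 0.41). With 4 genes so annotated, none above 5.05 FPKM in any library, this class holds little on the mitochondrial ribosome. The 31 members of bacterial type with no compartment could not be placed in either organelle.

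The cytosolic-type members moved by less. The highest called one, LOC_Os09g31180, is described as L6 and belongs to the eukaryotic family L9e. It had 57.7, 56.8 and 67.6 FPKM in GLY libraries, against 35.9, 38.6 and 38.9 FPKM in CK libraries (log2 fold change 0.67, SE 0.10, limma adjusted p = 0.0074). LOC_Os07g05580, described as L7Ae and of family S12e, had 14.1, 13.4 and 13.3 FPKM in GLY and 5.44, 9.15 and 7.73 FPKM in CK (log2 fold change 0.82, SE 0.18, limma adjusted p = 0.024). Both lost the call after scaling, with adjusted p of 0.055 and 0.092. The S12e gene also lost it without CK3, GLY1, GLY2 or GLY3, with adjusted p between 0.060 and 0.072. LOC_Os06g51530, of family L35e, kept it (log2 fold change 0.72, limma adjusted p = 0.0050, and 0.016 after scaling), but its entry also held the gene LOC_Os06g51524, and its annotated transcript was at 0 in 5 libraries and at 0.29 FPKM in GLY3. The 109 genes described as 40S or 60S proteins, which the rule left out, had 5 higher (4.90%) and 1 lower among 102 tested, where 19.3% and 5.65% of all entries were called, with a median log2 fold change of 0.19. After scaling 1 was higher and 3 were lower, with a median of -0.09.

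**Figure D5:**
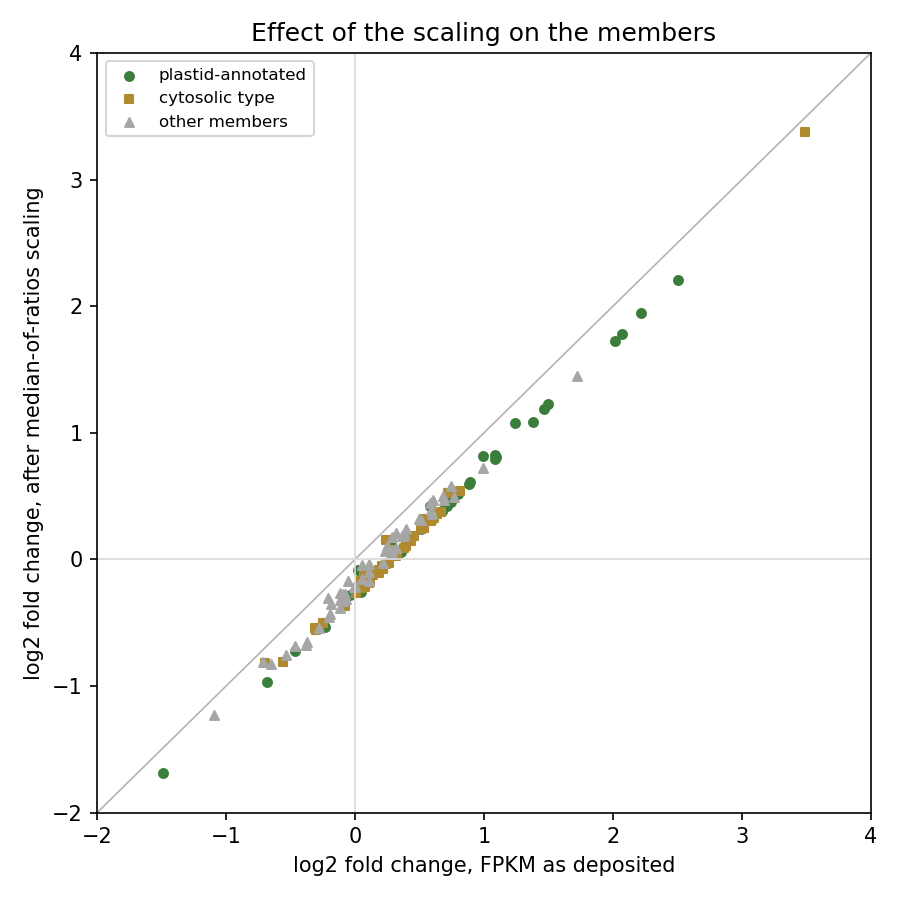
Log2 fold change of each tested member after median-of-ratios scaling (vertical axis) against that from FPKM as deposited (horizontal axis), with plastid-annotated members as circles, cytosolic-type members as squares, other members as triangles and the line of equality in grey. All 136 points lie below the line by construction, since the size factors are above 1 in every GLY library and below 1 in every CK library. The median of all entries is 0.20 as deposited and -0.02 after scaling, that of the cytosolic-type members 0.22 and -0.05, and that of the plastid-annotated members 0.71 and 0.45.

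Genes that work with organellar ribosomes were looked at by fixed words in their descriptions. Of 20 organellar translation factors 18 were tested, with a median log2 fold change of 0.26. Of the 18, 4 were higher (22.2%) and 1 was lower (5.56%), close to the 19.3% and 5.65% of all entries. One of the 4, LOC_Os05g31020, is described as a eukaryotic release factor, a protein of cytosolic translation that the words also matched. After scaling it was the one gene of the list still higher, and 1 was lower. Chloroplast initiation factor IF-2 (LOC_Os05g49970), which brings the initiator tRNA to the small subunit, had 20.0, 19.8 and 19.1 FPKM in GLY and 15.9, 14.1 and 14.0 FPKM in CK (log2 fold change 0.40, limma adjusted p = 0.024, and 0.12 with adjusted p = 0.38 after scaling). An IF-3 gene (LOC_Os02g55120) had 20.0, 20.6 and 16.4 FPKM in GLY and 28.2, 45.3 and 27.8 FPKM in CK (log2 fold change -0.77, limma adjusted p = 0.0497). Of 6 genes for plastid transcription, 2 sigma factor genes were higher (33.3%, against 19.3% of all entries), and the median was -0.03. After scaling 0 were higher and 1 other sigma factor gene, LOC_Os05g50930, was lower (log2 fold change -0.73, limma adjusted p = 0.015), with a median of -0.32. The list for ribosome assembly found 1 gene, which did not pass the filter.

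Expression was also given per transcript. The members had 213 transcripts, 184 annotated and 29 newly assembled, and 12 of 176 tested were higher and 0 lower, where 4.4% of all 32646 tested transcripts were higher and 1.79% lower. Among the 12 were the main transcripts of the S5, S9, S31, L3, L6, L10, L13, L15 and L29 genes named above. The members lay on all 12 chromosomes, 26 of them on chromosome 3. Of the 33 plastid-annotated members 13 were on chromosome 3, and 8 of these 13 were among the 13 called higher, where 19.7% of all tested entries of that chromosome were called higher. Promoters and protein sequences of the members were not analysed here.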

How the data were processed

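The authors removed ribosomal RNA from leaf RNA, sequenced paired-end reads, mapped them to the rice Nipponbare genome using TopHat2 with Bowtie 2, assembled transcripts with StringTie and quantified them with Ballgown. The authors deposited FPKM per gene entry and per transcript for each library, without pooling, and a coverage column per transcript, a signal that keeps the depth. The count model named in the study was not used here, since the values are FPKM. Coverage divided by FPKM gave the depth ratio, which is not the number of mapped bases of a library.

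A linear model on log2(FPKM + 1) was fitted in R 4.3.3 with limma 3.58.1 and its trended moderation of variances, GLY against CK, over 19316 entries with a mean of at least 0.5 FPKM, two-sided, with Benjamini-Hochberg adjustment. Without counts no counting error is given. In simulated data for 19316 genes with 50 genes changed at each size, the fit recovered 10 at a log2 change of 0.58, 22 at 1, 33 at 1.58 and 40 at 2, with 9 false calls. The changed genes were drawn from better expressed entries, and no shift over all genes was simulated. These figures therefore do not carry over to weakly expressed members.

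The members and lists were chosen with earlier results of these data known. Members named are those past both thresholds, the 10 largest called rises and falls without overlap, and the 5 of highest level in each described compartment. LOC_Os03g62630, LOC_Os03g17580, LOC_Os02g15900, LOC_Os11g34940, LOC_Os02g04460, LOC_Os11g03400, LOC_Os06g51530, the family copies and the translation factor genes were chosen after their values were seen, as were the annotated classes. KO families were sorted into bacterial and eukaryotic type by hand. Other settings tried were median-of-ratios scaling, no filter, a filter at 1 FPKM, a pseudocount of 0.1 and unmoderated variances. Also tried were a replicate block, each library left out, and Ballgown's library-size covariate, the last fitted with unmoderated variances. Same-numbered libraries did not deviate together. A planned promoter motif count was not run.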

Additional observations from a re-analysis of the deposited data

How the results depend on the processing

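Median-of-ratios scaling gave 1915 entries higher and 1960 lower among all tested, 12 members higher and 9 lower, and medians of 0.045 for the tested members, 0.51 for members described as chloroplast, 0.00072 for those without a described compartment, 0.45 for plastid-annotated members and -0.053 for cytosolic-type members. The estimate for LOC_Os01g44210 became -0.26. Ballgown's library-size covariate correlated with treatment at 0.988 over the 6 libraries. The covariate fit also used unmoderated variances, which without the covariate left 19 members higher. It called 0 entries in either direction, 0 members and 0 plastid-annotated members at the adjusted threshold, while 9 members had an unadjusted P under 0.05. At the study's threshold it called 1 member lower and 3 plastid-annotated members higher. Its medians were 0.38 for members, 0.32 above that of all entries, -0.30 for those described as chloroplast, 1.34 as mitochondrial, 0.42 without a compartment and 0.43 for plastid-annotated members. It turned the sign of LOC_Os02g43600 (-1.25), LOC_Os04g38750 (-7.74), LOC_Os05g32220 (1.04), LOC_Os06g03790 (-0.80) and LOC_Os07g36090 (0.86), which were not called, and of 3 of the 27 called rises, LOC_Os02g01230 (-0.23), LOC_Os02g15900 (-0.30) and LOC_Os08g03450 (-0.27). Without the filter and without moderation 0 members were lower. With a pseudocount of 0.1, 2 members were lower at the study's threshold and the median of members described as mitochondrial was 0.72, and with a minimum mean of 1 FPKM it was 0.59, with 1 member left. The causes were not tested, apart from the smaller number of genes in the last case.

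The replicate block gave 1846 entries higher and 616 lower, and 17 members higher, all among the 27, and it lost the calls of LOC_Os07g05580 and LOC_Os12g33240. The pairing had no ground in the labels, and the deviations of same-numbered libraries correlated at 0.0035, 0.0099 and 0.0060. Leaving out 1 library gave 18 to 25 members higher and 0 to 2 lower, 0 to 1 lower at the study's threshold, 11 to 14 plastid-annotated members higher, and 2253 to 2776 entries higher. LOC_Os04g38750 ranged from -0.0043 to 2.42. Without counts, the number of fragments behind the low-level members is not known.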
